A study of Danio rerio with 12 samples.

Results

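Zebrafish embryos injected with morpholinos that target pbx2 and pbx4 together were compared at 18 somites with control-injected embryos of the same stage. The comparison uses 6 of the 12 arrays of the series, chosen by their titles alone: 3 arrays of pbx2-MO;pbx4-MO embryos, called morphants here, and 3 of Control MO embryos. The control arrays are written C1 to C3 and the morphant arrays M1 to M3, by the replicate numbers of the titles. The other 6 arrays hold the same pair of groups at 10 somites. All embryos were injected when they had 1 or 2 cells, and RNA was taken from whole embryos, so that an array averages over every tissue. The labels describe the control oligomer as a pbx2 mutant morpholino and give neither the age in hours nor the amount injected. A morpholino is an antisense oligomer that lowers the making of a protein for a limited time and leaves the gene in place. The replicates are numbered, and the labels do not state whether each stands for its own clutch and injection. The p-values therefore reflect the variation among the arrays alone, part or all of which may be technical. The spread behind them was estimated from all 12 arrays, those of 10 somites included.

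Pbx proteins are TALE class homeodomain factors that bind DNA in complexes with Hox, Meis and Pknox proteins. In the zebrafish they are known for their part in giving hindbrain segments their identity and in the differentiation of fast muscle, heart and pancreas. At the stage studied the brain is divided into regions, somites are still being added to the tail, muscle is differentiating and the heart tube is forming. The comparison asks which transcripts depend on Pbx2 and Pbx4 at that time, and the results are ordered by the roles of the gene classes.

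Signals are log2 expression values per probe set, on which a difference of 1 is a doubling, and a gene is read through its probe set with the highest mean. The 6 arrays had medians between 6.52 and 6.57, and arrays of a group correlated at 0.995 to 0.997 over probe sets. Of 30 marker genes listed for tissues of the segmenting embryo 25 were measured. On the control arrays 24 of them, from the blood globin gene hbbe3 to the epidermal keratin gene krt4, lay above the range (3.62 to 5.25) of 8 probe sets for artificial tags, which have no target in an embryo, and the germ cell gene ddx4 lay inside it. Of the 25 markers 7 fell and 0 rose. Of 8793 genes 1298 (14.8%) had an adjusted p under 0.05 in the linear model fitted with limma and are said to have risen or fallen: 728 rose (8.28%) and 570 fell (6.48%). Over probe sets 12.5% were called, 7.11% higher and 5.37% lower. The median change over all genes was 0.0027, the median size of a called change was 0.36, and among the called genes 24 moved 2-fold or more, of which 9 rose and 15 fell. At an unadjusted p under 0.05 in the same limma fit, 1434 of the 8793 genes were higher and 1158 lower. The 3 morphant values did not overlap the 3 control values for 31.9% of all genes, 17.4% higher and 14.4% lower. Most genes named below were chosen as called genes by size of change, so that separate groups are likely among them. Where separate groups are stated below, they describe the values and add no support to the calls. Without C1 454 genes rose and 366 fell. After each array was centred on its median, 604 rose and 690 fell, so that the balance of directions turned with the scaling, while the scalings moved the median of all genes by at most 0.023. Of the 25% of genes with the lowest signals 5.96% were called, and of the 25% with the highest 19.3%.

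The TALE homeobox genes include the targets themselves and the partners of their proteins. Of 20 measured, 7 rose (35.0%, against 8.28% of all genes) and 1 fell (2 with the replicate number as a block). The pbx2 signal was higher in morphants by 1.63 ± 0.11 (SE, here and below) and that of pbx4 by 0.34 ± 0.09 (adjusted p = 1.41e-06 and 0.0192), the latter losing its call without C1 (0.0755) or M1 (0.073) or M2 (0.0757). These RNA values do not measure the proteins. The gene pknox2, whose product belongs to the partner family of Pbx proteins, had control signals of 5.62, 5.69 and 5.65 and morphant signals of 6.32, 6.26 and 6.04. All 3 morphant values lay above all control values, and pknox2 rose by 0.56 ± 0.10 (adjusted p = 0.00254), although its other probe set gave 0.12 (adjusted p = 0.483). The Iroquois gene irx1b, a regulator of neural patterning, rose by 0.50 ± 0.06 with signals of 8.93, 8.92 and 8.98 against 9.46, 9.46 and 9.42. Its relative irx3a was the gene that fell, by 0.33 ± 0.08 (adjusted p = 0.014, and 0.0522 without M3).

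Hox genes encode the homeodomain proteins that assign position along the body axis, and low group numbers act in the head end while high numbers act in the trunk and tail. The measured genes divided by group number. Of 17 genes of groups 1 to 5, 9 fell and none rose, and of 25 genes of groups 6 to 13, 14 rose and 2 fell. Of all genes 8.28% rose and 6.48% fell. Across the 42 genes the group number and the change had a Spearman rho of 0.67, given as a description because the genes share the same arrays. Within the clusters it was 0.69 over 11 hoxa genes, 0.59 over 13 hoxb genes, 0.46 over 12 hoxc genes and 0.41 over 6 hoxd genes. At 10 somites, where 4.98% of all genes rose and 4.53% fell, rho was 0.56. Among groups 1 to 3, which pattern the hindbrain, 5 of 9 genes fell in the limma fit reported (6.48% of all genes fell). The count was also 5 without any 1 of the 6 arrays. In the limma fit reported 0 genes of this class were higher even at an unadjusted p under 0.05. The gene hoxa3a had control signals of 7.79, 7.90 and 8.02 and morphant signals of 7.0, 6.83 and 6.95, a fall of 0.97 ± 0.07 (adjusted p = 2.76e-06), and its other probe set gave -1.04. The hindbrain gene hoxb2a fell by 0.75 ± 0.09 from 7.48, 7.65 and 7.3 to 6.83, 6.79 and 6.54, with -0.57 for its other probe set. No morphant array overlapped the control arrays for either gene. Between them in size lay hoxb1a at -0.96 ± 0.11 and hoxa2b at -0.81 ± 0.09.

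**Figure D1:**
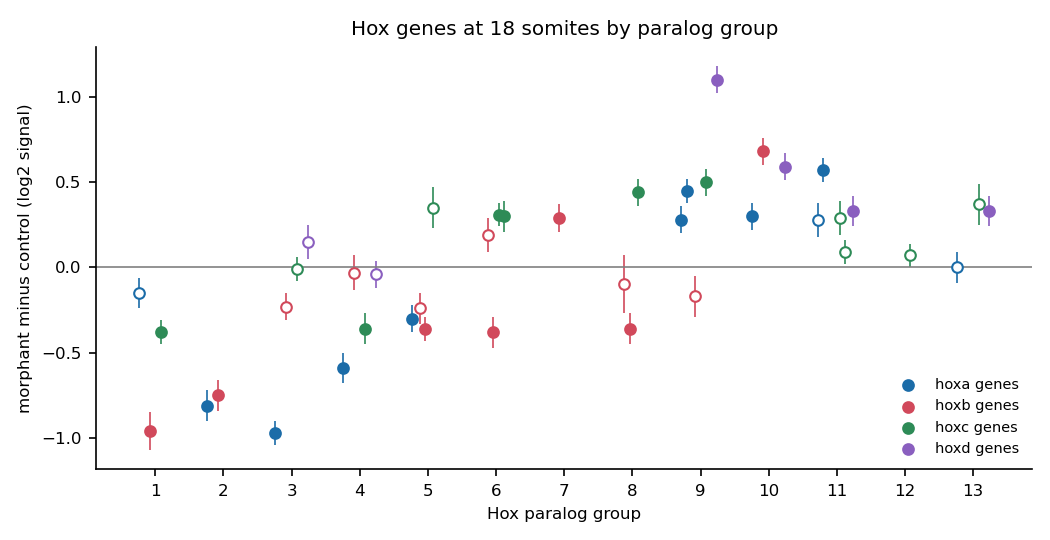
Change of 42 Hox genes at 18 somites (morphant minus control, log2 signal, bars 1 SE) by paralog group, with colours for the a, b, c and d clusters; filled points are genes with an adjusted p under 0.05 and open points are not. The filled points of groups 1 to 5 lie below 0 and those of groups 9 to 13 above it, with both signs in groups 6 to 8.

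Groups 4 and 5, which act around the junction of hindbrain and spinal cord, held 4 falls among 8 genes and no rise in the limma fit reported. The falls make 50.0% of the class, against 6.48% of all genes. At an unadjusted p under 0.05 with limma 1 gene was higher and 5 lower. With the replicate number as a block 1 gene rose (12.5%, against 11.6% of all genes), as without C3 (against 6.1%). The leading gene hoxa4a fell by 0.59 ± 0.09 from 7.27, 7.35 and 7.32 to 6.59, 6.67 and 6.90 (adjusted p = 0.000624), and hoxb5b by 0.36 ± 0.07. The calls of hoxc4a (-0.36 ± 0.09) and hoxa5a (-0.30 ± 0.08) were less stable. For hoxc4a the adjusted p was above 0.05 without any control array (0.0503, 0.0514 and 0.0597 for C1, C2 and C3) and without M1 (0.0806) and M2 (0.0515). For hoxa5a it was 0.088 and 0.11 without C1 and C2, and 0.071 and 0.0634 without M2 and M3. The count for the class was 2 without C1 or C2 or M2.

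Groups 6 to 8 moved in both directions, with 4 rises and 2 falls among 8 genes (8.28% of all genes rose and 6.48% fell). The trunk gene hoxc8a rose by 0.44 ± 0.08, from 9.55, 9.61 and 9.78 to 9.93, 10.21 and 10.12 (adjusted p = 0.00354). Its other probe sets gave 0.48 (adjusted p = 0.00475) and -0.04 (adjusted p = 0.875). The gene hoxc6a rose by 0.31 ± 0.07, while the hoxb genes of this class that were called downward were hoxb6b at -0.38 ± 0.09 and hoxb8b at -0.36 ± 0.09. Both of these were near the threshold when 1 array was left out. The hoxb6b call was lost without C3 (0.0523) or M2 (0.0513), and that of hoxb8b without C1 (0.0536) or M1 (0.063) or M2 (0.0591). The other rises were hoxc6b at 0.30 ± 0.09 and hoxb7a at 0.29 ± 0.08 (0.14 for its other probe set). Both were lost without C1 (0.18 and 0.134), M2 (0.132 and 0.124) or M3 (0.0854 and 0.0685), hoxc6b also without C3 (0.0542) or M1 (0.0531) and hoxb7a without C2 (0.0618), and both after median centring (0.0658 and 0.0551). A second probe set of hoxb8b gave -0.05 (adjusted p = 0.727). The count of rises was 2 without C1, M2 or M3, or after median centring. Of all genes 5.16%, 6.37%, 6.2% and 6.87% rose in those fits. The count of falls was 1 without C1 or C3 or M1, where 4.16%, 5.24% and 5.27% of all genes fell. It was 0 without M2, where 4.84% of all genes fell, so that the share of falls is not a result about the class.

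The posterior genes of groups 9 to 13 rose in 10 of 17 cases (58.8%, against 8.28% of all genes) and fell in none. At an unadjusted p under 0.05 with limma 13 were higher and 0 lower. The median change of the class was 0.33. The class median of the differences between arrays of the same number was 0.32, 0.38 and 0.26. The largest rise was that of hoxd9a, at 1.1 ± 0.08. The gene hoxd10a had control signals of 7.87, 7.86 and 7.77 and morphant signals of 8.36, 8.50 and 8.40, a rise of 0.59 ± 0.08 (adjusted p = 0.000536). For hoxa11b the signals were 7.19, 7.32 and 7.36 against 7.83, 7.77 and 7.99, a rise of 0.57 ± 0.07. Both pairs of groups were separate. The gene hoxb10a rose by 0.68 ± 0.08 (adjusted p = 0.000126), but its other probe sets gave 0.30 (adjusted p = 0.0201) and 0.24 (adjusted p = 0.0811). The count was 6 without C1 or C2 (35.3%, against 5.16% and 5.83% of all genes). At 10 somites 3 of the 17 rose, where 4.98% of all genes rose, and the median was 0.08. In the model's test of the difference between the stages 0 of the 17 were called, as were only 0.0455% of all genes. With so few calls in all, that count cannot show that the stages were alike.

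Regional genes of the brain changed in both directions. Of 34 hindbrain segmentation genes 10 fell (29.4%, against 6.48% of all genes) and 3 rose (8.82%, close to the 8.28% of all genes), and the 10 falls stood at 10 or 11 whichever array was left out. Of 46 genes of the midbrain, the midbrain-hindbrain boundary and the eye field, 9 fell (19.6%) and 6 rose (13%), and 7 to 9 fell when 1 array was left out. The gene gbx1, a homeobox gene of the anterior hindbrain, had control signals of 6.71, 7.0 and 6.81 and morphant signals of 5.64, 5.72 and 5.62, a fall of 1.18 ± 0.11 (adjusted p = 1.68e-05). The boundary gene en2a fell by 1.2 ± 0.16, from 6.56, 6.66 and 6.44 to 5.01, 5.30 and 5.73, and her5, a repressor that keeps boundary cells undifferentiated, by 0.93 ± 0.11. The morphant signals of her5 (4.63, 4.84 and 4.96) lay within the tag range of those arrays, which ended at 5.28. The retinal homeobox gene rx1 fell by 0.76 ± 0.09 (adjusted p = 0.000198).

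The rises in that class included six3a and mab21l2. The gene six3a, a homeobox gene of the anterior neural plate, had control signals of 7.72, 7.76 and 7.72 and morphant signals of 8.21, 8.52 and 8.48, a rise of 0.67 ± 0.08 (adjusted p = 0.000232). The gene mab21l2, which acts in eye growth, rose by 0.74 ± 0.11 from 8.40, 8.47 and 8.28 to 9.29, 9.10 and 8.97. Its paralog mab21l1 had the lowest change of the class, at -1.59 ± 0.15. Thus 1 of these similar genes rose and the other fell. In bulk RNA, fewer cells of a type and less RNA in each cell cannot be told apart, here and for the classes below.

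Several genes of neuron formation fell. The class of proneural bHLH genes holds factors that start neuronal differentiation, such as neurog1, and relatives such as bhlhe22 and olig3. Of its 16 genes 6 fell (37.5%, against 6.48% of all genes) and none rose in the limma fit reported. In that fit 7 were lower and 1 higher at an unadjusted p under 0.05. With the replicate number as a block 1 rose, as without M2 (6.25%, against 11.6% and 6.37% of all genes). Without C1 or without M2 or M3 3 fell. The largest fall was that of bhlhe22, at -1.65 ± 0.16 with morphant signals within the tag range, and the call of olig3 (-0.31 ± 0.09) was lost without any 1 array (0.0583 to 0.0958), and its other probe set gave -0.00 (adjusted p = 0.98). The gene ascl1b fell by 0.60 ± 0.08 from 7.32, 7.38 and 7.12 to 6.57, 6.66 and 6.77, and neurog1 by 0.41 ± 0.08 from 7.89, 7.92 and 7.92 to 7.50, 7.37 and 7.64. No array of one group reached the range of the other. Of 46 genes of differentiating neurons 8 fell (17.4%, against 6.48% of all genes) and 1 rose (2.17%, against 8.28%). Without C1 5 fell (10.9%, against 4.16%), and 17 of the 46 lay within the tag range in both groups. The microtubule regulator gene stmn4 was at -0.61 ± 0.17, a call lost without C2 (0.116), M1 (0.0675) or M3 (0.116). The synaptic vesicle fusion gene snap25a fell by 0.56 ± 0.07, from 5.78, 5.61 and 5.57 to 5.09, 5.0 and 5.19, the latter within the tag range. The motor neuron homeobox gene isl2a was the neuronal gene that rose, by 0.53 ± 0.08, from 7.49, 7.41 and 7.59 to 7.87, 8.19 and 8.01. The pan-neuronal gene elavl3 had control signals of 8.93, 8.94 and 9.14, compared with 8.97, 8.85 and 8.89 in morphants, ranges that overlap (-0.10 ± 0.10, adjusted p = 0.57).

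Among 33 neural progenitor genes 8 fell (24.2%, against 6.48% of all genes) and 1 rose (3.03%, against 8.28%). Whichever array was left out 6 fell, 18.2% of the class against 4.16% to 5.33% of all genes. The largest change was that of the radial glial lipid carrier gene fabp7a, at -0.74 ± 0.18, a call lost without C3 (0.0659), M1 (0.0507) or M2 (0.0686). That of s100b (-0.65 ± 0.17), within the tag range in both groups, was lost without C1 (0.076), C2 (0.0795), M1 (0.0602), M2 (0.0523) or M3 (0.0584). The glial filament gene gfap had control signals of 8.78, 8.86 and 8.62 and morphant signals of 8.06, 8.13 and 8.19, a fall of 0.62 ± 0.09 (adjusted p = 0.000794). The SoxB1 factor gene sox1a fell by 0.64 ± 0.10 and its other probe sets gave -0.45 (adjusted p = 0.00266) and -0.10 (adjusted p = 0.443). The riser was pou5f3, the pluripotency factor gene, at 0.54 ± 0.09.

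Tubulins are the subunits of microtubules, and the gamma-tubulin complex starts their growth. Of 16 genes 8 (50.0%, against 6.48% of all genes) fell and none rose (11 lower and 0 higher at an unadjusted p under 0.05 with limma), the median change was -0.28, and the median difference between same-numbered arrays was -0.24, -0.29 and -0.26. Without C1 the count was 5. The gamma-tubulin complex gene tubgcp2 fell by 0.53 ± 0.08, from 7.13, 7.21 and 7.15 to 6.49, 6.66 and 6.76. The gamma-tubulin gene tubg1 fell by 0.34 ± 0.07, from 8.68, 8.67 and 8.63 to 8.42, 8.24 and 8.29. The beta-tubulin gene tubb2 fell by 0.38 ± 0.07, from 7.27, 7.27 and 7.19 to 6.90, 6.78 and 6.90. Every morphant value was below every control value for these 3 genes, as for 14.4% of all genes. Both kinds of subunit were among the falls, with 3 of 5 beta-tubulin and 3 of 8 alpha-tubulin genes. The change of tubb5 (-0.52 ± 0.12) was lost without C1 (0.0505), and its other probe set gave -0.12 (adjusted p = 0.432). Tubulin genes are similar in sequence, and cross-hybridisation between their probe sets was not tested.

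**Figure D2:**
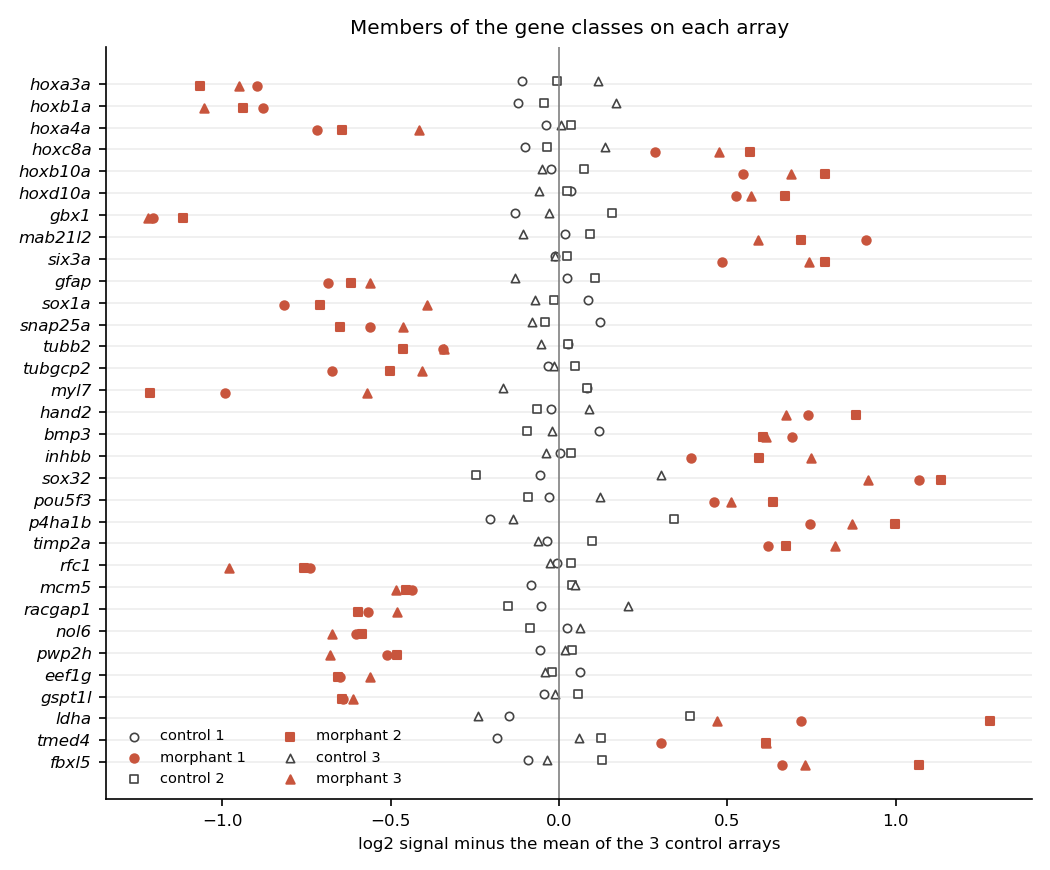
Signals of 32 genes from the classes described, on each array, as the log2 signal minus the mean of the 3 control arrays; open symbols are control arrays and filled symbols morphant arrays, with 1 shape per replicate number. The morphant symbols of each gene shown lie apart from its control symbols, which held for 31.9% of all genes. Genes such as ldha and p4ha1b are highest on the array numbered 2 in both groups.

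Retinoic acid genes were called in both directions. Retinoic acid is made from vitamin A, is degraded by Cyp26 enzymes and sets position along the axis. Of 29 genes 6 fell (20.7%, against 6.48% of all genes) and 4 rose (13.8%, against 8.28%), and 6 fell whichever array was left out. Besides cyp26b1 and aldh1a2, the falls included dhrs3a, whose enzyme turns retinaldehyde back to retinol. It had control signals of 6.25, 6.42 and 6.13 and morphant signals of 5.33, 5.45 and 5.59, a fall of 0.82 ± 0.09 (adjusted p = 0.000126). The retinol carrier gene rbp4 fell by 0.83 ± 0.13 from 10.82, 10.84 and 10.66 to 9.98, 9.76 and 10.08. Its relative rbp4l rose by 0.46 ± 0.09, and stra6, the gene of a retinol uptake receptor, rose by 0.44 ± 0.10 from 7.59, 7.72 and 7.39 to 7.98, 8.13 and 7.91. The stra6 call was lost without C3 (0.0545) or M2 (0.0533), and the count of rises was 2 without M2.

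Of 23 heart genes 6 fell (26.1%, against 6.48% of all genes), 3 rose (13%, against 8.28%) and 14 were not called, and 6 or 7 fell when 1 array was left out. The falls included the myosin gene myh7, at -1.68 ± 0.14 with morphant signals within the tag range, and the titin gene ttn.2, at -0.89 ± 0.15, whose other probe sets gave -0.91 (adjusted p = 0.000204), -0.11 (0.595) and -0.05 (0.657). The light chain gene myl7 had control signals of 7.16, 7.16 and 6.91 and morphant signals of 6.08, 5.86 and 6.51, a fall of 0.93 ± 0.13 (adjusted p = 0.000486). The regulator hand2, a bHLH factor needed for heart and fin tissue, rose by 0.77 ± 0.07 from 8.28, 8.24 and 8.40 to 9.05, 9.19 and 8.98 (adjusted p = 1.8e-05). The homeobox gene nkx2.7 rose by 0.36 ± 0.09 (adjusted p = 0.0151), a call lost without C1 (0.0601) or C2 (0.0622) or M3 (0.0598). Other tissues also express hand2. Of 32 fast muscle genes 7 fell (21.9%, against 6.48% of all genes) and none rose, or 1 without M2. The falls numbered 4 without C1 and 8 without M1. The class median was -0.03, and 8 of the 32 lay within the tag range in both groups. Of the 4 slow muscle genes measured 0 were called in the limma fit reported. At an unadjusted p under 0.05 in that fit 2 were higher and 0 lower. The largest values were 0.24 for myl10 (adjusted p = 0.0739) and 0.17 for smyhc1. With the replicate number as a block 1, myl10, was called (adjusted p = 0.0491).

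Members of the Bmp and TGF-beta pathway, secreted ligands with their receptors, Smad transducers and Id targets, rose in 9 of 52 cases (17.3%, against 8.28% of all genes) and fell in 1 (1.92%, against 6.48%). The ligand genes among them were bmp3, inhbb and bmp2b. The gene bmp3 had control signals of 8.26, 8.05 and 8.12 and morphant signals of 8.83, 8.75 and 8.76, a rise of 0.64 ± 0.10 (adjusted p = 0.00097). The activin subunit gene inhbb rose by 0.58 ± 0.09 from 7.28, 7.31 and 7.24 to 7.67, 7.87 and 8.03, and bmp2b by 0.50 ± 0.09. The receptor gene bmpr1ba rose by 0.46 ± 0.09. The morphant arrays were above the control arrays for each of these genes. The gene that fell was lft1, which encodes an inhibitor of Nodal signals, at -0.68 ± 0.15 (6.75, 6.81 and 6.55 against 6.32, 5.88 and 5.87). Without 1 array the count of rises was 7 to 9.

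In the class of germ cell and maternal RNAs, which also holds some transcription factor genes of the early embryo, 5 of 28 genes rose (17.9%, against 8.28% of all genes) and 1 fell (2 with the replicate number as a block), while the class median of 0.01 changed sign under some other settings. The genes named here are those of the class with the largest rises. The endoderm factor gene sox32 read 4.81, 4.62 and 5.17 in controls, all within the tag range, and 5.94, 6.00 and 5.79 in morphants, a rise of 1.04 ± 0.11 (adjusted p = 6.88e-05). The gene pou5f3 had control signals of 6.18, 6.12 and 6.33, compared with 6.67, 6.84 and 6.72 in morphants. The ventral homeobox genes ved and vox rose by 0.69 ± 0.14 and 0.38 ± 0.08. The germ cell genes ddx4 and nanos3 were not called. The former was at 0.04 ± 0.06 (adjusted p = 0.723) and the latter at 0.19 ± 0.10 (adjusted p = 0.252). Of 40 genes of endoderm, gut and pancreas 7 rose (17.5%) and 3 fell (7.5%, against 6.48%), and 6 to 8 rose without 1 array, while 1 fell without C1 or C3 or M3. Besides sox32 they included the chemokine receptor gene cxcr4a, which is also expressed outside the endoderm, at 0.74 ± 0.09 (8.35, 8.26 and 8.11 against 8.89, 9.09 and 8.95), the gut homeobox gene nkx2.3 at 0.45 ± 0.09 and the mesendoderm gene mixl1 at 0.44 ± 0.09. The signals of mixl1 (4.81, 4.74 and 4.89 against 5.25, 5.17 and 5.35) lay within the tag range or just above it.

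Of 23 genes of collagen-modifying enzymes, matrix proteases and their inhibitors 7 (30.4%) rose and none fell (8 higher and 1 lower at an unadjusted p under 0.05 with limma), against 8.28% of all genes, with a median of 0.13 and 5 or 6 rises without 1 array. The prolyl 4-hydroxylase gene p4ha1b, whose enzyme lets collagen form stable helices, had control signals of 8.51, 9.06 and 8.58 and morphant signals of 9.46, 9.71 and 9.58, a rise of 0.87 ± 0.16 (adjusted p = 0.00346). Its relative p4ha2 rose by 0.68 ± 0.15. The protease inhibitor gene timp2a rose by 0.70 ± 0.08, from 5.82, 5.95 and 5.79 to 6.47, 6.53 and 6.67, and the matrix protease gene mmp9 by 0.66 ± 0.07, from 6.2, 6.28 and 6.14 to 6.84, 6.99 and 6.78. These groups did not overlap on any array. Of 21 collagen genes 1 rose, col12a1b at 0.30 ± 0.07, and 1 fell, col1a2 at -0.46 ± 0.10 (2 fell with the replicate number as a block). In the fit reported each share was 4.76%, below the 8.28% and 6.48% of all genes. These shares are not a result about the collagen class.

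Of 50 genes that copy DNA 21 (42.0%) fell and none rose (29 lower and 0 higher at an unadjusted p under 0.05 with limma), against 6.48% of all genes. The median change was -0.21, and it was -0.18, -0.21 and -0.20 between arrays numbered 1, 2 and 3. The count ranged from 15 to 20 without 1 array. All 6 measured genes of the Mcm2 to Mcm7 helicase, which unwinds DNA ahead of the replication fork, fell, with changes from -0.46 to -0.27, and did so after median centring too. The gene mcm5 had control signals of 9.99, 10.11 and 10.12 and morphant signals of 9.64, 9.62 and 9.59 (-0.46 ± 0.07, adjusted p = 0.000613), and mcm2 had control signals of 10.89, 10.89 and 10.87, compared with 10.37, 10.44 and 10.49 in morphants. The gene mcm4 was at -0.40 ± 0.06. The lowest change was that of rfc1, the large subunit of the complex that loads the sliding clamp, at -0.83 ± 0.07 (8.51, 8.55 and 8.49 against 7.78, 7.76 and 7.54, adjusted p = 1.78e-05). Of the 4 clamp loader subunits measured 2 fell. At 10 somites 20 of the 50 had fallen, where 4.53% of all genes fell.

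Of 60 genes of mitosis and cytokinesis 10 fell (16.7%, against 6.48% of all genes) and none rose, with a median of -0.14. At an unadjusted p under 0.05 with limma 18 were lower and 0 higher. The count of falls was 6 without C1 or C2 or M1, and 4 without C3 or M2. Those 4 make 6.67% of the class, near the 5.24% (without C3) and 4.84% (without M2) of all genes. With the 18 somite arrays alone the share was also 6.67%, against 4.4%. In these fits the share is not a result about the class. The cytokinesis gene racgap1 fell by 0.55 ± 0.10, from 8.17, 8.07 and 8.43 to 7.65, 7.62 and 7.74, and the kinetochore gene nuf2 by 0.31 ± 0.06, from 6.99, 7.0 and 7.03 to 6.77, 6.63 and 6.68. Both had separate groups. The spindle gene kif23 was at -0.36 ± 0.07, but its other probe set gave -0.08 (adjusted p = 0.701), and the call of ect2 (-0.34 ± 0.09) was lost without C3 (0.083), M1 (0.0678) or M2 (0.0699).

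The nucleolus is where ribosomal RNA is made and ribosomal subunits are assembled. Of 73 of its genes 25 fell (34.2%, against 6.48% of all genes) and none rose, or 1 with the replicate number as a block. Of the 73, 43 were lower and 2 higher at an unadjusted p under 0.05 with limma, and 66 had a negative change of any size. The median was -0.20, and it was -0.17, -0.19 and -0.25 between same-numbered arrays. The number of calls was 11 without C1, 16 without C2, and 15 and 14 without M2 and M3. The gene nol6, of the early processome, had control signals of 9.30, 9.19 and 9.34 and morphant signals of 8.67, 8.69 and 8.60, a fall of 0.62 ± 0.07 (adjusted p = 0.000124). The processome gene pwp2h fell by 0.56 ± 0.08 from 8.63, 8.72 and 8.70 to 8.17, 8.20 and 8.0, and utp25 by 0.47 ± 0.07 from 8.75, 8.76 and 8.80 to 8.38, 8.35 and 8.17. In each case all morphant signals were below all control signals. The call of nop16 (-0.45 ± 0.13) was lost without C1 (0.13) or C3 (0.0503) or M2 (0.0721) or M3 (0.121). At 10 somites 4 of the 73 genes had fallen, with a median of -0.06, where 4.53% of all genes fell. Of the 73, 0 had a called difference between the stages, as had only 0.0455% of all genes. That count cannot show that the stages were alike.

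The genes of the ribosome's own proteins were mostly not called. Of 74 cytoplasmic ribosomal protein genes 1 fell and none rose (1 lower and 0 higher at an unadjusted p under 0.05 with limma), with changes from -0.33 to 0.12 and a median of 0.02 that changed sign under some other settings. The gene that fell was rps27.1, at -0.33 ± 0.06, from a control mean of 12.99 to 12.73, 12.65 and 12.59 in morphants, and its other probe sets gave -0.41 and -0.40. Of 73 translation factors and their regulators 10 fell (13.7%, against 6.48% of all genes) and 4 rose (5.48%, against 8.28%), and 7 to 11 fell without 1 array. The rises numbered 2 without C1 or C2 or M1 or M2. The elongation factor gene eef1g had control signals of 12.85, 12.77 and 12.74, compared with 12.13, 12.13 and 12.23 in morphants, a fall of 0.62 ± 0.06 (adjusted p = 3.91e-05). Its partner in the same exchange complex, eef1b2, fell by 0.61 ± 0.06 from 12.27, 12.22 and 12.20 to 11.65, 11.59 and 11.60. The termination factor gene gspt1l fell by 0.63 ± 0.06. The kinase gene eef2k, whose product slows elongation, rose by 0.55 ± 0.09, from 6.12, 6.26 and 6.46 to 6.77, 6.83 and 6.89.

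**Figure D3:**
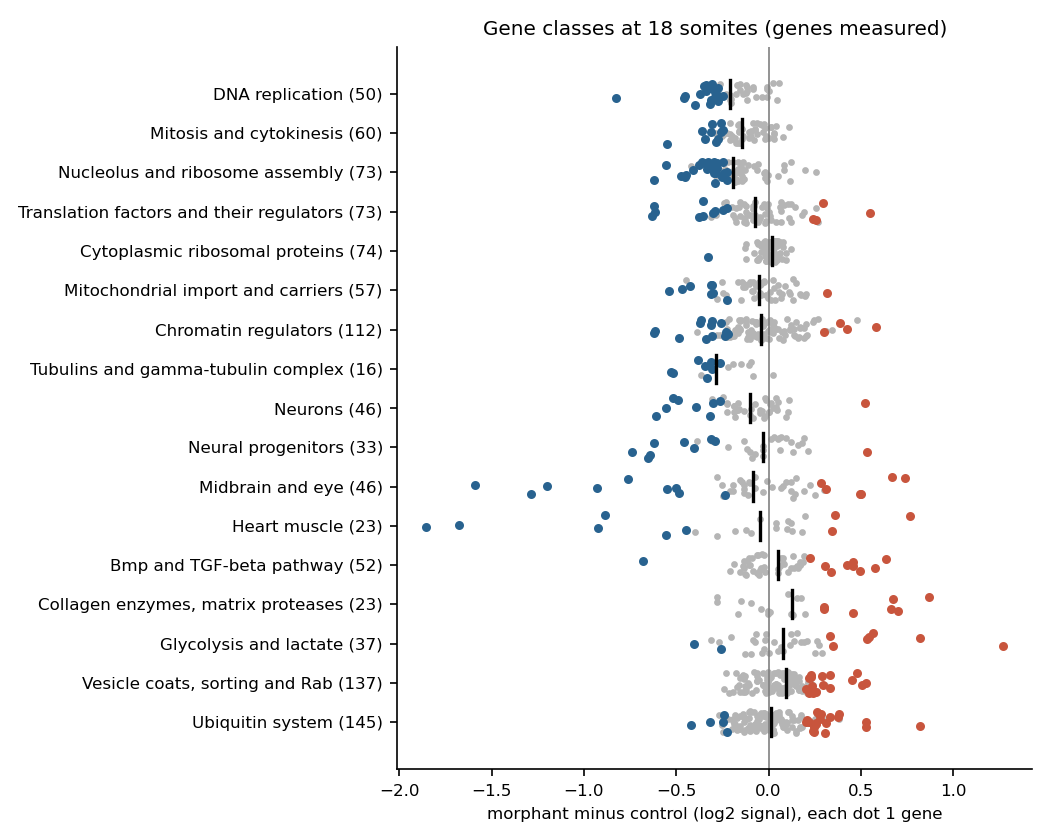
Change of every measured gene in 17 classes at 18 somites (morphant minus control, log2 signal); red and blue dots are genes that rose or fell at an adjusted p under 0.05, grey dots are other genes, black bars are class medians and numbers in brackets are genes measured. The replication, nucleolus and tubulin classes have their blue dots and medians on the left and hold no red dot, while the cytoplasmic ribosomal proteins sit close to 0.

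Of 57 genes of mitochondrial import and mitochondrial carriers 8 fell (14%, against 6.48% of all genes) and 1 rose (2 with the replicate number as a block). Without M2 or M3 5 fell, 8.77% of the class against 4.84% and 5.33% of all genes. The carrier gene slc25a14 was at -0.54 ± 0.10, but it lay within the tag range in both groups and its other probe sets gave -0.20 and -0.20, not called. The import channel gene tomm40l had control signals of 9.0, 9.04 and 8.99, compared with 8.70, 8.57 and 8.48 in morphants, a fall of 0.42 ± 0.07 (adjusted p = 0.00153). The gene chchd4a, whose product folds proteins brought into the intermembrane space, fell by 0.47 ± 0.08 from 6.22, 6.13 and 6.07 to 5.72, 5.67 and 5.63. The riser was tomm7, a small part of the outer membrane import complex, at 0.31 ± 0.06 (9.64, 9.61 and 9.59 against 9.95, 9.83 and 10.01).

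Of 112 chromatin regulators 13 fell (11.6%, against 6.48% of all genes) and 4 rose (3.57%, against 8.28%). Without C2 8 fell, without C1 or M3 2 rose, and with the replicate number as a block 8 rose. The protein arginine methyltransferase genes prmt1 and prmt7 fell by 0.61 ± 0.10 and 0.48 ± 0.07, with prmt7 at 8.15, 8.23 and 8.20 against 7.63, 7.82 and 7.67. The nucleosome-binding gene hmgn7 fell by 0.62 ± 0.06, from 11.36, 11.33 and 11.36 to 10.73, 10.77 and 10.69 (adjusted p = 3.26e-05). The remodelling complex gene smarcd1 rose by 0.58 ± 0.07 from 10.49, 10.62 and 10.58 to 11.12, 11.20 and 11.11, and the histone demethylase gene kdm5ba by 0.42 ± 0.07. None of these groups overlapped.

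Of 137 genes for vesicle coats, sorting and Rab GTPases 16 rose and none fell (36 higher and 7 lower at an unadjusted p under 0.05 with limma), 98 were positive, and the median was 0.09. At that unadjusted p 1434 of all 8793 genes were higher and 1158 lower. The rises make 11.7% of the class, near the 8.28% of all genes, and 1 gene fell with the replicate number as a block or without M1 or M3, and 2 after median centring or quantile normalization. The count of rises was 10 without C1, 8 without C2 or C3, and 7 without M1, where it was 5.11% against 6.04% of all genes, so that the share is not a result about the class. The cargo receptor gene tmed4 had control signals of 7.20, 7.50 and 7.44 and morphant signals of 7.68, 7.99 and 7.99, a rise of 0.51 ± 0.11 (adjusted p = 0.00672). The traffic gene rab1bb was at 0.53 ± 0.11, with control signals within the tag range. The early endosome gene rab5aa rose by 0.45 ± 0.10 and its other probe set gave 0.47 (adjusted p = 0.00199). The sorting nexin gene snx12 rose by 0.48 ± 0.08, but its other probe sets gave -0.10 (adjusted p = 0.546) and -0.18 (adjusted p = 0.116).

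Of 145 genes of the ubiquitin system, which marks proteins for degradation, 20 rose (13.8%, against 8.28% of all genes) and 5 fell (3.45%, against 6.48%, or 9 with the replicate number as a block). The rises numbered between 8 (without C2) and 12 (without M3), and 11 without C1 or M2, 10 without C3 and 9 without M1. Without C2 they were 5.52% against 5.83% of all genes, without C3 6.9% against 6.1%, and without M1 6.21% against 6.04%. Without M2 they were 7.59% against 6.37%, and with the 18 somite arrays alone 6.21% against 5.45%. In these fits the share is not a result about the class. Without C1 it was 7.59% against 5.16%, and without M3 8.28% against 6.2%. The class median of 0.01 changed sign under some settings. The falls numbered 1 without C1 or C2, 2 without M2, and 3 without M1 or M3. The iron-sensing F-box gene fbxl5 had control signals of 7.85, 8.07 and 7.91, compared with 8.60, 9.01 and 8.67 in morphants, a rise of 0.82 ± 0.12 (adjusted p = 0.000769), and its other probe set gave 0.47 (adjusted p = 0.0371). The ligase gene fbxo32 was at 0.53 ± 0.14 within the tag range of both groups, a call lost without C1 (0.0854), C3 (0.06) or M2 (0.0952). The deubiquitinase gene usp13, at -0.42 ± 0.10, lost its call without C1 (0.0782) or M2 (0.073). The ligase gene rnf13 rose by 0.53 ± 0.09 from 6.71, 6.91 and 6.66 to 7.23, 7.45 and 7.19. The proteasome, which degrades the marked proteins, gave no rise among 51 genes and 2 falls with limma (3.92%, against 6.48% of all genes). These were psma4 at -0.42 ± 0.07 and psme3 at -0.37 ± 0.07. The share of falls is not a result about the proteasome class.

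Glycolysis and lactate genes rose in 7 of 37 cases (18.9%, against 8.28% of all genes) and fell in 2 (5.41%, against 6.48%), and with the replicate number as a block 10 rose and 4 fell. The largest rise was that of the lactate transporter gene slc16a3b, at 1.27 ± 0.21, with control signals within the tag range. The lactate dehydrogenase gene ldha had control signals of 6.54, 7.08 and 6.45 and morphant signals of 7.41, 7.97 and 7.16, a rise of 0.82 ± 0.18 (adjusted p = 0.01). The isomerase gene gpia rose by 0.57 ± 0.13 from 8.38, 8.63 and 8.12 to 8.66, 9.13 and 9.04. The array numbered 2 was the highest of its group for both genes, in control and morphant embryos alike, but all morphant arrays were above all control arrays. The call of eno1a (0.55 ± 0.13) was lost without C3 (0.0651) or M2 (0.0583) or M3 (0.0631). The glycolysis regulator gene pfkfb4b fell by 0.40 ± 0.10, from 8.40, 8.09 and 8.34 to 7.85, 7.80 and 7.96, a call lost without C1 (0.0776) or C3 (0.0604) or M1 (0.0509) or M2 (0.062). The rises numbered 4 without M3, and the falls 0 without C1 or C3 or M1 and 1 without either of the other morphant arrays.

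Some classes held no call in the limma fit reported. None of 18 Krueppel-like and Sp factor genes was called (2 higher and 1 lower at an unadjusted p under 0.05), and the largest changes were 0.22 for sp5l and 0.21 for klf2a. None of 12 lens crystallin genes was called (1 lower at an unadjusted p under 0.05), but 8 of them lay within the tag range in both groups. Of 13 cholesterol synthesis genes 0 were called (2 higher and 3 lower at an unadjusted p under 0.05), while with the replicate number as a block 2 fell, fdps (-0.40 ± 0.13, adjusted p = 0.0542, and 0.0415 with the block) and hmgcs1 (-0.33 ± 0.14, adjusted p = 0.148 and 0.0301), and 1 rose, against 9.17% of all genes falling and 11.6% rising under the block. Over all 8793 genes 1434 were higher and 1158 lower at an unadjusted p under 0.05 with limma. A p above the threshold does not show that these genes were alike in both groups.

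Zebrafish keep many gene copies named a and b from a duplication of the fish genome. Of 593 such pairs with both copies measured, 24 (4.05%) had both copies called, 153 had 1 and 416 had neither. Of all genes 14.8% were called. The number of pairs to be called for unrelated copies was not worked out, so the counts are a description. In 18 of the 24 the copies moved in the same direction and in 6 in opposite directions. With the replicate number as a block 48 pairs had both copies called, 35 of them in the same direction. Without 1 array the number was 11 to 15: 11 without C1 or M2, 12 without C2 or M3, and 15 without C3 or M1. Fewer of all genes were called in those fits as well. Over all pairs 352 had the same sign, and the changes of the copies correlated at 0.236, a description over pairs that share the same arrays. Cross-hybridisation between copies was not tested.

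The pairs with the largest mean change that moved alike were egr2a and egr2b, en2a and en2b, and six3a and six3b. The hindbrain gene egr2a was at -0.61 ± 0.10, from 5.46, 5.45 and 5.71 to 5.08, 4.89 and 4.81, against -3.32 for egr2b, and both copies had morphant signals within the tag range. The engrailed copies changed alike, at -1.2 and -1.28, and the six3 copies at 0.67 and 0.50.

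Of the pairs that moved apart, the stress response factor genes atf4a and atf4b differed most, with atf4a up by 1.08 ± 0.10 and atf4b down by 0.30 ± 0.08, the latter from 8.88, 8.64 and 8.73 to 8.58, 8.43 and 8.36. The atf4b call was lost without C1 (0.145) or C3 (0.0679) or M2 (0.092) or M3 (0.111). The forkhead gene foxo3a rose by 0.36 ± 0.09 and foxo3b fell by 0.73 ± 0.14, from 8.42, 8.78 and 8.27 to 7.76, 7.84 and 7.68. The foxo3a call was lost without C2 (0.0592) or C3 (0.0952) or M1 (0.0544) or M2 (0.0746), its other probe sets gave 0.09 and 0.16, and the other probe set of foxo3b gave -0.45 (adjusted p = 0.0669). The gene inka1a fell by 0.53 ± 0.11, from 8.47, 8.51 and 8.81 to 8.05, 8.03 and 8.11 (-0.42 for its other probe set), while inka1b rose by 0.43 ± 0.08, from 7.57, 7.35 and 7.39 to 7.79, 7.83 and 7.97. These ranges did not overlap for either copy. The pyrophosphatase gene ppa1a rose by 0.42 ± 0.07, and ppa1b was at -0.34 ± 0.09, a call lost without C3 (0.0939) or M1 (0.0694) or M2 (0.0861), with -0.09 for its other probe set. In the fibronectin pair fn1a rose by 0.86 ± 0.14, from 8.68, 8.81 and 8.62 to 9.71, 9.82 and 9.15, while fn1b was at -0.27 ± 0.11 (adjusted p = 0.147). The other probe sets of fn1a gave 0.53 (adjusted p = 0.0796) and 0.04 (adjusted p = 0.859).

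**Figure D4:**
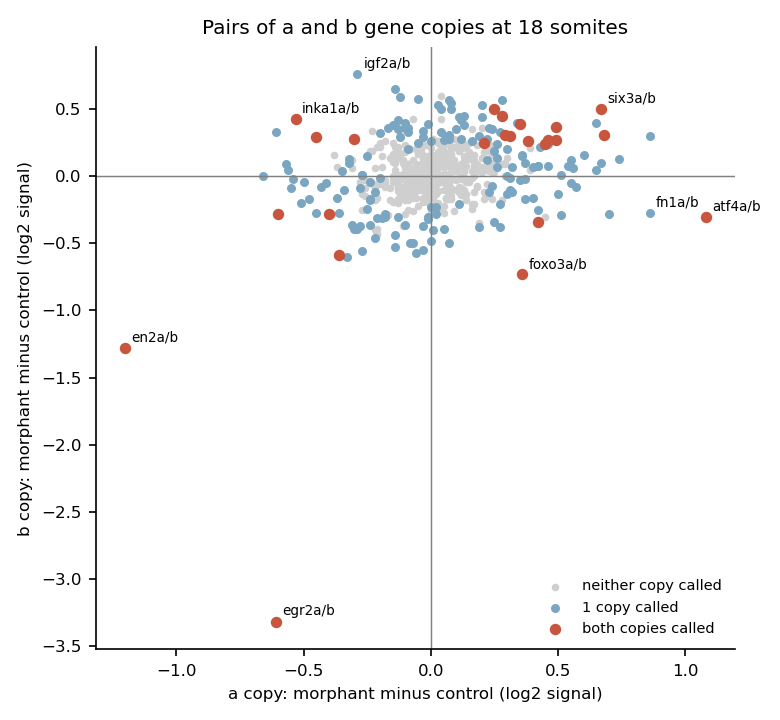
Change of the a copy against that of the b copy (morphant minus control, log2 signal) for 593 gene pairs; red points have both copies called, blue points 1 and grey points neither. The egr2 pair lies lowest, the en2 pair fell in both copies, and atf4, foxo3 and inka1 lie in the corners where the copies differ in sign.

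The classes were set beside the same classes at 10 somites, which use other arrays with higher signal medians (7.29 to 7.31). Across genes the effects of both stages correlated at 0.685. In the test of the difference between the effects, 4 genes (0.0455%) were called, 1 higher (0.0114%) and 3 lower (0.0341%) at 18 somites, while 819 (9.31%) had an unadjusted p under 0.05. These 4 were named after their values were seen. The heart gene cmlc1 was at -1.85 ± 0.12 at 18 somites and -0.21 at 10 somites. The gene zgc:92606 rose by 0.80 ± 0.09, from 7.07, 7.33 and 7.18 to 7.89, 8.07 and 8.02. The Wnt pathway activator gene rspo1 fell by 0.34 ± 0.08 at 18 somites and was at 0.44 at 10 somites, with signals at 18 somites (4.95, 4.88 and 5.10 against 4.57, 4.70 and 4.64) within the tag range. The gene crip2 was at -0.25 ± 0.09 at 18 somites (adjusted p = 0.082, and 0.0434 with the replicate number as a block) and at 0.59 at 10 somites.

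**Figure D5:**
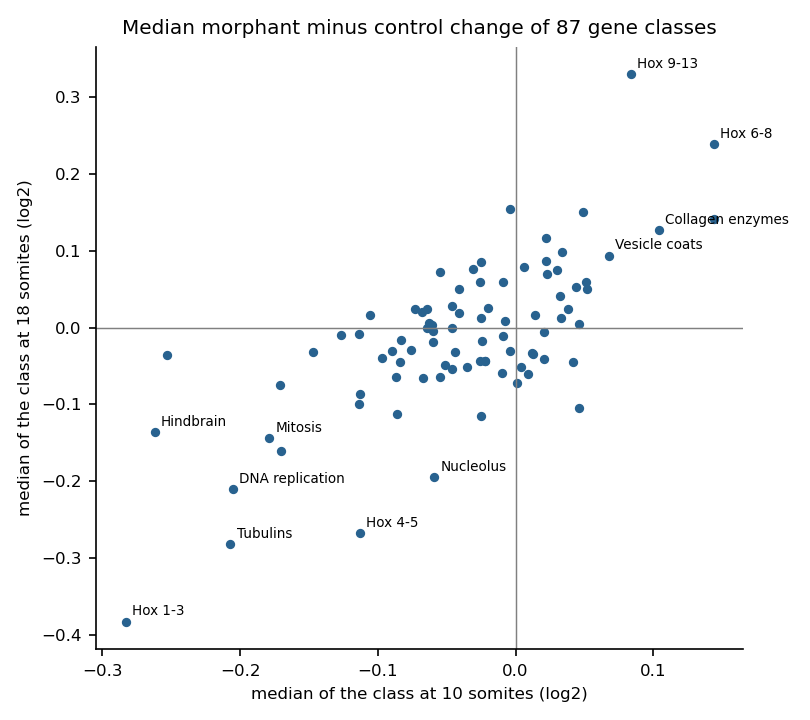
Median change of 87 gene classes at 10 somites (horizontal) and 18 somites (vertical), in log2 units of morphant minus control, each point 1 class. The Hox classes of groups 9 to 13 and 6 to 8 lie highest at 18 somites and those of groups 1 to 3 lowest, and the nucleolus class is at -0.20 at 18 somites and -0.06 at 10 somites.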

How the data were processed

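Expression was measured on Affymetrix zebrafish arrays in 12 samples of whole embryos, 3 in each of 4 groups, from labelled total RNA. The deposited values are log2 signals that the authors made with RMA in the affy package, per the submitters' processing notes, which give no version in the sources used here. RMA subtracts background, equalises the distributions of arrays processed together and sums probes, which can shrink differences of faint transcripts. Array medians were 7.29 to 7.31 at 10 somites and 6.52 to 6.57 at 18 somites. The deposited distributions were therefore not equal over all 12 arrays, and the reason was not tested. An offset shared by both groups of a stage cancels in the comparison within that stage.

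Of 15617 probe sets 115 controls were left out, and 15502 were fitted with limma 3.58.1 in R 4.3.3, with 1 mean per group over all 12 arrays and 8 residual degrees of freedom. P-values were adjusted over all probe sets by Benjamini-Hochberg and are two-sided, with calls at an adjusted p under 0.05. The fit was tested on simulated data with independent noise on each array. That test therefore does not cover variation shared by arrays of the same replicate number. Symbols came from the platform annotation: 10795 probe sets had 1 symbol, 135 several and 4572 none, and 10711 gene identifiers matched RefSeq, which updated 1 symbol. The 8793 genes were read through their probe set with the highest mean, and 1539 had more than 1.

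Classes are described by counts and medians, with no test of a class. Classes overlap where a gene belongs to several, as sox32 and pou5f3 do, so that their counts are not separate evidence. The classes, lists and members were chosen with earlier results of these data known, 24 class memberships were removed after values were seen, and so were 71 gene pairs whose final letters belong to the ancestral names. The rule for named genes allowed, in each class, up to 4 called genes in the direction with more calls and up to 2 in the other, by size of change, or the 2 largest where none was called, with pairs chosen likewise, any called gene with a change of at least 2-fold, and the markers. Not every gene it allows is described, and some small changes were left out. Arrays of the same replicate number deviated alike. Deviations from the group means correlated at 0.408, 0.301 and 0.325 between arrays of the same number at 18 somites, and at -0.289 to -0.087 otherwise. The deviations of a group cancel out, so that the negative values are partly built in. The labels do not state what is shared by arrays of the same replicate number. The number was not a term of the fit reported, and is one of the alternatives, with median centring, quantile normalization, a filter on dim probe sets, an intensity trend, array weights, the 18 somite arrays alone, and each array left out. The small number of arrays limits the precision.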

Additional observations from a re-analysis of the deposited data

Results flagged for a closer look

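For 4 genes the effect of the knockdown differed between the stages in limma's test of the difference, adjusted over all probe sets. The effect at 18 somites minus that at 10 somites was -1.64 for the heart gene cmlc1 (adjusted p = 0.00136), 0.90 for zgc:92606 (adjusted p = 0.0204), -0.78 for rspo1 (adjusted p = 0.0204) and -0.84 for crip2 (adjusted p = 0.033). For each of them the 3 morphant values at 18 somites did not overlap the 3 control values, which held for 31.9% of all genes. That is no measure of a difference between the stages, and crip2 was not called at 18 somites (adjusted p = 0.082). Groups of 3 arrays were not searched for single outlying arrays.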

How the results depend on the processing

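Of 131 called genes named, 107 kept their call under every alternative in which they were tested, and none of the 131 changed direction. The filter on dim probe sets held 122 of the 144 named genes, and the others were not tested under it. With the 18 somite arrays alone fewer calls were made: 732 higher probe sets, 479 higher genes, 2 rises in Hox groups 6 to 8 and 6 in groups 9 to 13, 5 falls among neuronal genes, 4 in mitosis and 14 in the nucleolus, 8 rises in vesicle coats and 9 in the ubiquitin system, and 11 gene pairs. Median centring also gave 2 rises in Hox groups 6 to 8. A filter kept the brightest 60% of probe sets, so that fewer genes were tested. It left 4 falls and 5 rises among 24 midbrain and eye genes, and 2 falls and 3 rises among 14 heart genes. In both of these classes rises then outnumbered falls. Of 16 neuron genes 4 fell and 1 rose with the filter, and of 28 progenitor genes 5 fell and 1 rose. Of all genes 9.35% fell and 11.6% rose with it. With the replicate block 48 pairs had both copies called, and 41 in the 18 somite arrays alone. The block lost no named call, and class counts that it moved by over 1.5 times, with the zeros that it ended, stand beside those counts, and 1830 genes were called with it. Quantile normalization over all 12 arrays gave 7 genes that differed between stages. Keeping all 664 pairs of symbols, an alternative chosen after seeing the data, gave 25 pairs. Where these causes are not stated, they were not tested.

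Leaving out 1 array gave 1213 to 1532 probe sets (676 to 854 higher, 537 to 693 lower) and 820 to 1014 genes (454 to 560 higher, 366 to 469 lower). In those fits 5.16% to 6.37% of all genes rose and 4.16% to 5.33% fell. Falls ranged from 2 to 3 in Hox groups 4 and 5, 3 to 4 in proneural genes, 5 to 7 in neurons, 5 to 9 in tubulins, 4 to 12 in mitosis, 11 to 24 in the nucleolus, 5 to 7 in mitochondrial import and 8 to 14 in chromatin. Rises ranged from 2 to 3 in Hox groups 6 to 8, 6 to 10 in groups 9 to 13, 4 to 8 in glycolysis, 7 to 12 in vesicle coats and 8 to 12 in the ubiquitin system. Pairs ranged from 11 to 15. The medians of the heart, ubiquitin, cytoplasmic ribosomal, retinoic acid and early embryo classes, 5 of 26, changed sign under some alternative. Signals near the tag range limit what can be called.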
